A study of Mus musculus with 22 samples.

Results

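The genes described here encode the subunits of the NMDA receptor, a glutamate-gated ion channel. The members were chosen by name, as 6 listed mouse genes (Grin1, Grin2a, Grin2b, Grin2c, Grin2d and Grin3a), and 5 of the 6 had counts among the 23037 genes of the table. For Grin2d no transcript was matched, and its RNA was not analysed here. Transcripts were measured by CelSeq2, a sequencing method that reads the 3′ end of RNA, in 22 libraries from the hippocampus, cortex and cerebellum of 8 mice. The mice were 4 wild-type (WT) and 4 circTulp4-deficient (CD) animals, called KO in the descriptions of the samples. The question was how subunit RNA differed between the regions, and whether it differed between CD and WT mice within each region.

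CD mice are a constitutive line on a C57BL/6 background in which genome editing changed the splice acceptor used for backsplicing of Tulp4, together with a PAM. Every tissue of the animal therefore carries the change, and some circTulp4 is still made from a neighbouring acceptor. WT mice carry the unedited allele, and no mouse was treated with any agent. Age and sex of the mice used for sequencing are not given in the sources used here. The hippocampus was sequenced from 3 WT and 4 CD mice, the cortex from 4 WT and 4 CD mice, and the cerebellum from 4 WT and 3 CD mice. Libraries are named here by the number of the mouse, which the labels repeat across regions.

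NMDA receptors are tetramers that hold the obligatory subunit GluN1 together with GluN2 or GluN3 subunits. GluN1 and GluN3 bind the co-agonists glycine and D-serine, whereas GluN2 subunits bind glutamate and set conductance, kinetics and sensitivity to the magnesium block. In the rodent brain, GluN2B is abundant early and in the adult forebrain, GluN2A rises after birth, GluN2C is known from cerebellar granule cells, and GluN3A is most abundant in young neurons.

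A stretch of 27 coding bases from the third membrane segment is given for 4 members of the family. It was located by a short amino acid motif that the members share, so similarity in it was built in and does not measure relatedness. In the GRCm38 reference, each stretch lies within a single exon on the minus strand. The Grin1 stretch is at chr2:25297199-25297225 in exon 14 of 20, and that of Grin2a at chr16:9653447-9653473 in exon 8 of 12. The Grin2c stretch is at chr11:115253749-115253775 in exon 11 of 15, and that of Grin3a at chr4:49770470-49770496 in exon 3 of 9. They are written 5′ to 3′ in the direction of transcription, and capitals mark bases that differ from Grin1.
Grin1: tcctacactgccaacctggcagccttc
Grin2a: AGTtacacAgccaacctggcTgccttc
Grin2c: AGctacacGgccaaTctggcagccttc
Grin3a: AcAtacacAgcGaacTtggcTgcTGtc
Grin2a had the same base as Grin1 at 22 of the 27 positions, Grin2c at 23 and Grin3a at 19.

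Libraries held between 2760846 and 8858937 counts on the transcripts used here (median 5887410), so that 5 cpm (the counts-per-million unit) stood for 13.8 to 44.3 counts. Levels are given as cpm scaled by TMM over the 22 libraries. The defining markers of each region fitted its label: summed markers of cerebellar granule cells were at 1730 to 1939 cpm in the cerebellum and at 26.4 to 63.8 cpm elsewhere. The edit was checked on reads of the first Tulp4 exon in excess of a transcript that lacks it. In the hippocampus this excess was 2.71 to 3.69 cpm in WT mice and 0.423 to 0.573 cpm in CD mice m138, m190 and m242, but the library labelled CD of mouse m118 had 3.97 cpm, from 16 counts. That library went against its label, so genotype results in the hippocampus are given with and without it. The cortex and cerebellum libraries of mouse m118 were at 0.896 and 1.55 cpm, under the lowest WT library of the same region. Margins in these regions were narrow. The highest CD libraries were at 1.29 cpm in the cortex (m190, 8 counts) and 2.61 cpm in the cerebellum (m242, 19 counts). The lowest WT libraries, both of mouse m244, were at 1.45 cpm (4 counts) and 3.12 cpm (17 counts). In bulk tissue, fewer cells of a type and less RNA per cell cannot be told apart. The p-values measure the spread between libraries of different mice within a group, as labelled. The main comparisons of regions did not pair libraries of the same mouse.

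The regions differed most in the GluN2 subunits. Grin2b was 16.9-fold lower in the cerebellum than in the hippocampus and 15.0-fold lower than in the cortex, Grin2c was 7.12-fold and 7.42-fold higher there, and Grin1, the obligatory subunit, differed by at most 1.33-fold between any pair of regions. Between cerebellum and hippocampus, 3 of the 5 members passed an FDR below 0.01 with more than a 2-fold difference, against 22.8% of the 11137 genes tested. Between cerebellum and cortex 2 of 5 passed, against 22.6%, and between cortex and hippocampus 0 of 5, against 8.41% (4.38% higher and 4.03% lower in the cortex). Comparisons of the cerebellum share their cerebellum libraries and are given side by side. Grin2a passed the filter of 5 cpm in at least 2 libraries only through 3 hippocampus libraries, so its call in that comparison is not counted as support, which leaves 2 of 4.

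**Figure D1:**
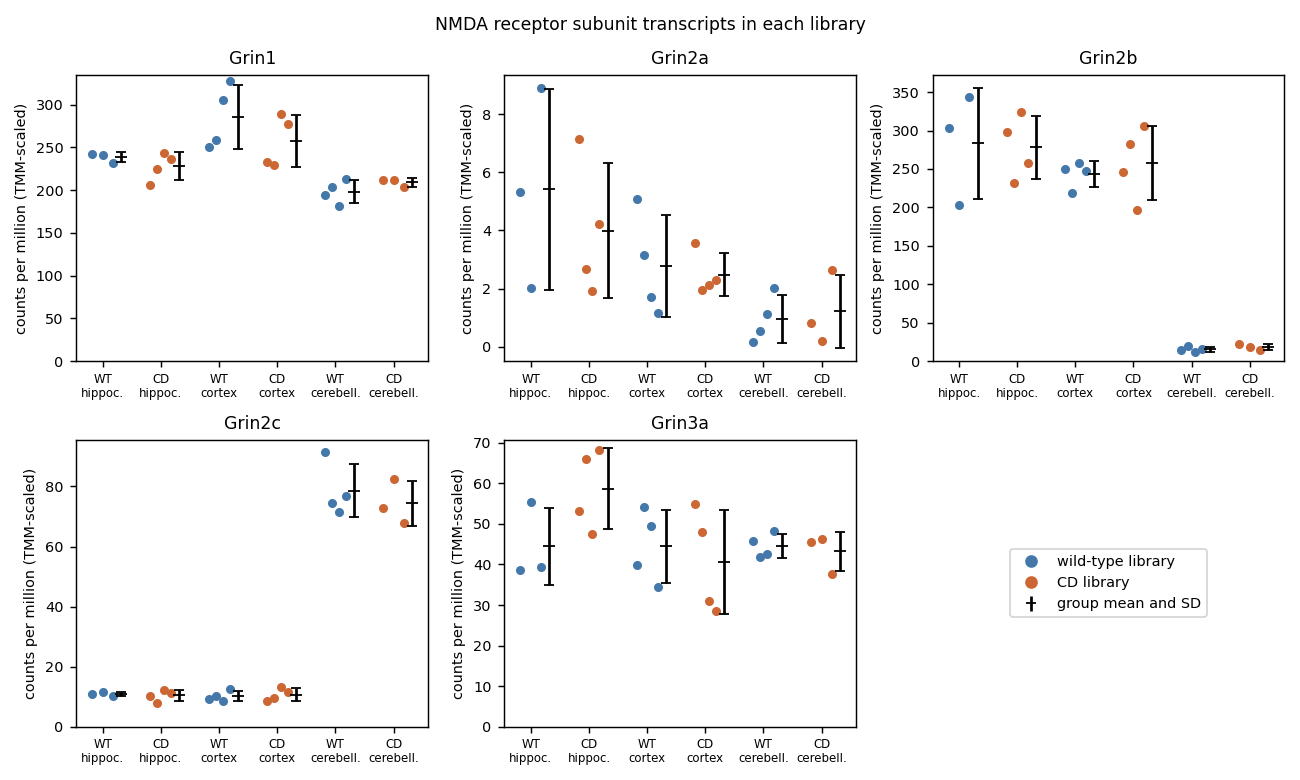
Level in cpm (counts-per-million, TMM-scaled, y axis) of the 5 measured NMDA receptor subunit genes in each library, by genotype and region; points are libraries, and bars give the mean and SD of each group. Grin2b lay at 12.2 to 21.996 cpm in the cerebellum and at 197 to 344 cpm elsewhere, while Grin2c lay at 67.7 to 91.4 cpm in the cerebellum and at 7.99 to 13.1 cpm elsewhere.

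Grin1 (chr2:25291177-25319187, minus strand) encodes GluN1, which every NMDA receptor contains. Its level in the hippocampus ran from 206 to 243.9 cpm with a median of 237, or 232 ± 13.4 cpm (SD, n = 7). In the cortex it ran from 230 to 328 cpm with a median of 268 (271 ± 34.7, SD, n = 8), and in the cerebellum from 181 to 213 cpm with a median of 204 (203 ± 11.5, SD, n = 7). The order was therefore cortex, hippocampus, cerebellum, with no cerebellum library reaching the lowest cortex library and with overlap between the hippocampus and each of the others. The level in the cerebellum was 1.33-fold lower than in the cortex (95% interval 1.20 to 1.48, log2 difference -0.42 ± 0.07 SE, edgeR quasi-likelihood adjusted p = 2.03e-05), which is under the 2-fold threshold. Cortex against hippocampus gave 0.21 ± 0.07 on the log2 scale (adjusted p = 0.0271) and cerebellum against hippocampus -0.21 ± 0.07 (adjusted p = 0.0169), neither past the threshold of 0.01.

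Grin2b (chr6:135713221-136173615, minus strand) encodes GluN2B, the glutamate-binding subunit of receptors with slow decay that predominate in early life. Its hippocampus libraries ran from 203 to 344 cpm with a median of 298, and its cortex libraries from 197 to 306 cpm with a median of 249. In the cerebellum the range was 12.2 to 21.996 cpm with a median of 15.6, from 66 to 114 counts a library. All 7 cerebellum libraries lay far under every forebrain library, and the forebrain regions overlapped almost completely. Grin2b was 16.9-fold lower in the cerebellum than in the hippocampus (95% interval 13.7 to 20.8, log2 difference -4.08 ± 0.15 SE, edgeR adjusted p = 6.70e-18) and 15.0-fold lower than in the cortex (12.2 to 18.4, -3.90 ± 0.14, adjusted p = 9.84e-18). Cortex and hippocampus differed by -0.17 ± 0.12 on the log2 scale (adjusted p = 0.264), with an interval from -0.42 to 0.07. Over all genes tested, 13% passed in the direction lower in cerebellum than in hippocampus and 12.9% lower than in cortex.

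Grin2c (chr11:115249169-115267297, minus strand) encodes GluN2C, whose receptors have low conductance and a weak magnesium block. In the cerebellum its level ran from 67.7 to 91.4 cpm with a median of 74.6 (76.8 ± 7.91, SD, n = 7). The hippocampus ran from 7.99 to 12.2 cpm (10.6 ± 1.36, n = 7) and the cortex from 8.42 to 13.1 cpm (10.4 ± 1.76, n = 8). Every cerebellum library was thus far above the highest forebrain library, and the forebrain regions were side by side. The cerebellum was 7.12-fold higher than the hippocampus (95% interval 6.08 to 8.34, log2 difference 2.83 ± 0.11 SE, edgeR adjusted p = 3.94e-17) and 7.42-fold higher than the cortex (6.36 to 8.65, 2.89 ± 0.11, adjusted p = 1.21e-17). Among all genes, 9.76% and 9.7% were called higher in the cerebellum in these comparisons. Cortex against hippocampus gave -0.06 ± 0.12 (adjusted p = 0.745; interval -0.30 to 0.19).

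Grin2a (chr16:9567901-9996083, minus strand) encodes GluN2A, the subunit of fast receptors in the adult forebrain. It was counted thinly in every region: 13 to 53 counts a library in the hippocampus, 3 to 33 in the cortex and 1 to 21 in the cerebellum. The level was 1.91 to 8.92 cpm in the hippocampus (median 4.23), 1.17 to 5.08 cpm in the cortex (median 2.21) and 0.151 to 2.63 cpm in the cerebellum (median 0.822). The ranges of all regions overlapped, widely between hippocampus and cortex, and the medians had the order hippocampus, cortex, cerebellum. The cerebellum was 4.01-fold lower than the hippocampus (95% interval 2.06 to 7.80, log2 difference -2.004 ± 0.46 SE, edgeR adjusted p = 0.000615). Against the cortex the log2 difference was -1.27 ± 0.48 (adjusted p = 0.0252), which did not pass, and cortex against hippocampus gave -0.74 ± 0.40 (adjusted p = 0.164). Without the CD cerebellum of mouse m242 the cerebellum against cortex value became -1.97 (adjusted p = 0.00434), and without the WT cerebellum of mouse m244 it became -1.61 (adjusted p = 0.00916), both past the thresholds.

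How the reads were placed bears on Grin2a. In 3′ libraries a gene is counted near the end of its transcript, and the only other Grin2a transcript in the table, NM_008170.2, with 245 counts, ends at its stop codon, 9929 bases short of the furthest annotated end in GENCODE. The transcript used here, the predicted XM_006521795.3, held 364 counts in all. With NM_008170.2 in its place, cerebellum against hippocampus was -1.68 (adjusted p = 0.0121) and no longer passed. The Grin2b transcript used, NM_008171.3, ends 16593 bases short of the furthest annotated end, while those of Grin1 and Grin3a end at it. Levels are therefore compared between regions only, not between genes. Whether the transcript end in use differed between regions was not tested.

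Grin3a (chr4:49661611-49846023, minus strand) encodes GluN3A, a glycine-binding subunit that lowers calcium entry. Its levels were 38.6 to 68.2 cpm in the hippocampus (median 53.3, 52.6 ± 11.7, SD, n = 7), 28.6 to 55.0 cpm in the cortex (median 43.9, 42.6 ± 10.5, n = 8) and 37.6 to 48.3 cpm in the cerebellum (median 45.6, 44.0 ± 3.58, n = 7). All 3 ranges overlapped. No difference between regions passed: cortex against hippocampus was -0.28 ± 0.14 (adjusted p = 0.118), cerebellum against hippocampus -0.24 ± 0.14 (adjusted p = 0.143), and cerebellum against cortex 0.04 ± 0.14 (adjusted p = 0.825). The intervals of these log2 differences reached from -0.56 to 0.32 at their outermost.

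**Figure D2:**
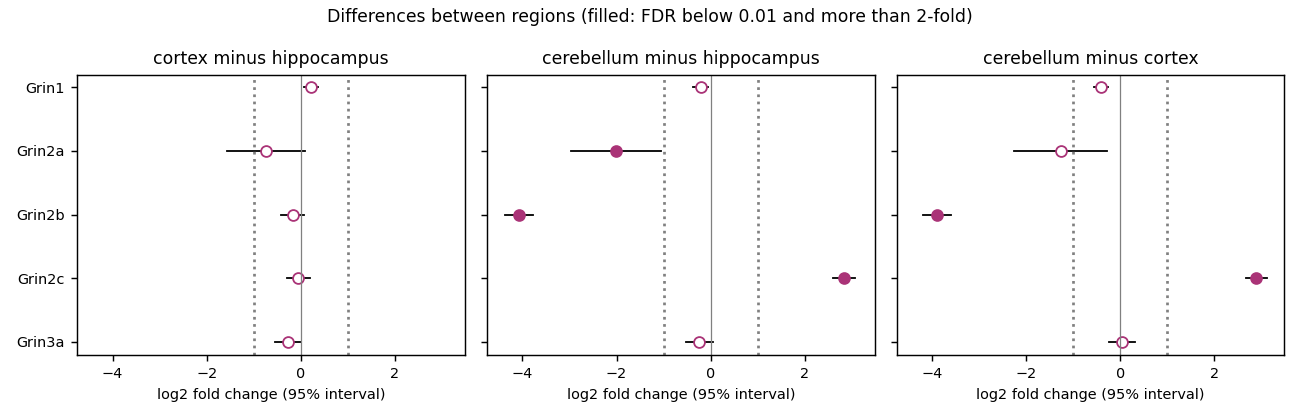
Log2 fold change between regions (x axis) of each NMDA receptor subunit gene with its 95% interval, edgeR over 22 libraries; filled points passed an FDR below 0.01 and more than 2-fold, and dotted lines mark 2-fold. Grin2b (-4.08 and -3.90) and Grin2c (2.83 and 2.89) stood out in both comparisons of the cerebellum.

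Counts within a library showed the same contrast without any scaling between libraries. Of the counts on Grin2a, Grin2b and Grin2c together, Grin2c took 2.83% to 5.36% in the hippocampus (median 3.39%), 3.21% to 6.16% in the cortex (median 3.54%) and 76.2% to 85.9% in the cerebellum (median 81.3%). The cerebellum libraries did not overlap with the rest. The share depends on which transcripts represent each gene and is compared across libraries only. On a log2 scale, Grin2a against Grin2b was -6.10 ± 0.75 (SD, n = 7) in the hippocampus, -6.63 ± 0.67 (n = 8) in the cortex and -4.34 ± 1.49 (n = 7) in the cerebellum, where single libraries had as few as 1 Grin2a count.

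**Figure D3:**
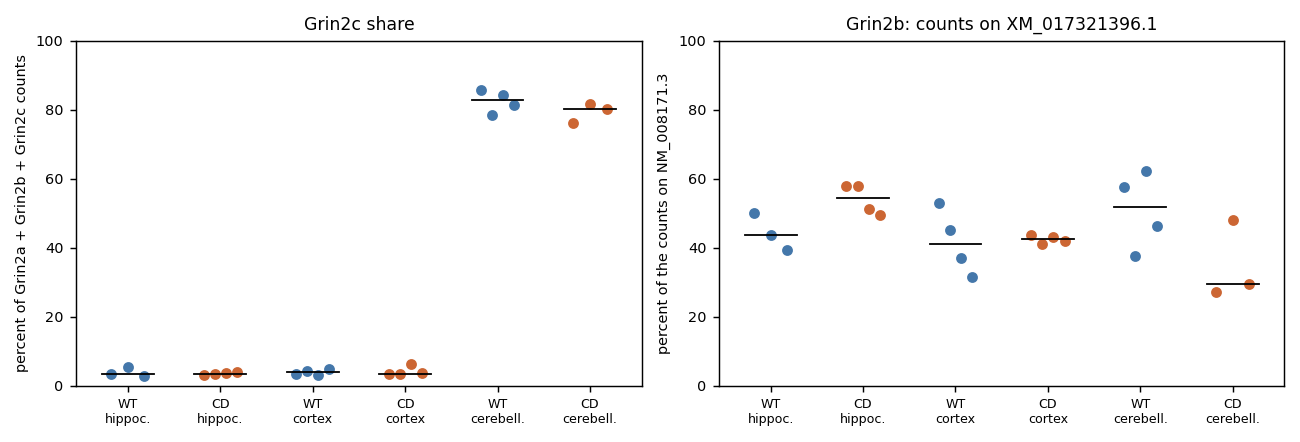
Left, percent of Grin2a, Grin2b and Grin2c counts that fell on Grin2c in each library; right, counts on the second Grin2b transcript as a percent of those on the main one; blue points are WT libraries, orange points CD libraries, and lines are group medians. The Grin2c share was 76.2% to 85.9% in the cerebellum and at most 6.16% elsewhere.

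The genes whose levels followed each subunit most closely over the 22 libraries are a description, since all points share the contrast of regions and the libraries their depth. Grin2b was closest to Rin1 (Pearson r = 0.991), an effector of Ras in forebrain neurons, and then to Tmem132b (r = 0.990) and Enc1 (r = 0.990). Grin2c was closest to Pcp2 (r = 0.991), a Purkinje cell gene, Slc1a6 (r = 0.991), a glutamate transporter of Purkinje cells, and Cbln3 (r = 0.990), a secreted protein of cerebellar granule cells. Grin1 was closest to Pcsk1n (r = 0.951), Cbx6 (r = 0.939) and Tesk1 (r = 0.911). The thinly counted Grin2a was closest to Grip1 (r = 0.853), Tmod2 (r = 0.843) and Sh3kbp1 (r = 0.842), and Grin3a had no gene above r = 0.735 (Lrpprc, followed by Trim24 and Malsu1). Markers of granule cells were higher in the cerebellum, like Grin2c, as given above, and those of Purkinje cells were at 4618 to 5398 cpm there against 193 to 392 cpm elsewhere. Summed markers of Bergmann glia and astrocytes were at 6101 to 7348 cpm in the cerebellum and at 2720 to 3328 cpm elsewhere. Aldoc was the largest part of that sum (mean 5540 cpm in the cerebellum, 1970 in the hippocampus and 2460 in the cortex). Gdf10, Aqp4 and Slc1a3 were also higher in the cerebellum, whereas Gfap was lower there (158 cpm against 622 and 170 cpm). The part of these markers in the result was not tested.

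Genes that work with the receptor were taken from 5 lists of 70 genes in all. Of all genes tested, 9.76% were called higher and 13% lower in the cerebellum than in the hippocampus, and 9.7% and 12.9% against the cortex. Of the genes called, Dao passed the filter only through cerebellum libraries, and Slc17a6, Dlgap2, Actn2, Kif17 and Rasgrf2 only through forebrain libraries. In a comparison that holds the libraries they passed through, such genes had to differ. Their values are a description, and each list is also counted without them. Kif17 passed through cortex libraries only. The first list concerns supply of glutamate and co-agonists. Between cerebellum and hippocampus, 2 of its 13 tested genes were higher and 7 lower, with a median log2 difference of -1.05 against 0.02 over all genes, and without Dao and Slc17a6 it was 1 higher and 6 lower of 11. Slc6a9, a glycine transporter, was higher by 1.42 ± 0.09, and Dao, D-amino acid oxidase, which degrades D-serine, had a log2 difference of 7.39 ± 0.21. Slc1a1 was lower, at -2.12 ± 0.09, as was Slc1a2, the main astrocytic glutamate transporter, at -1.76 ± 0.08, and Slc17a6, a vesicular glutamate transporter, was at -3.14 ± 0.37. Against the cortex, 2 were higher and 6 lower, with a median of -0.98, and without those genes 1 and 5 of 11.

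Scaffolds and auxiliary proteins hold the receptor at the postsynaptic density. In the cerebellum, 6 of 13 were lower than in the hippocampus and 1 higher, with a median log2 difference of -0.86, and without Dlgap2 and Actn2 it was 4 lower and 1 higher of 11, with a median of -0.73. Neto1, an auxiliary subunit (-5.15 ± 0.15), and Nefl, a neurofilament subunit (-1.53 ± 0.13), were lower. Dlgap2, a PSD-95-binding scaffold, was at -5.18 ± 0.14, and Actn2, an actin crosslinker that binds GluN1, at -4.46 ± 0.35. Ephb2, a receptor tyrosine kinase, was the 1 higher gene (1.30 ± 0.17), and Dlg4, which encodes PSD-95 itself, was at -0.86 ± 0.16 and under 2-fold. Against the cortex 5 were lower and 1 higher, and without those genes 3 and 1 of 11.

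Trafficking genes carry the receptor to the synapse and back. Of 12, 1 was higher in the cerebellum than in the hippocampus and 3 lower, with a median of -0.16, and without Kif17 1 was higher and 2 lower of 11. The share that was higher is near that of all genes. Lin7a, part of the complex that carries GluN2B vesicles, was higher by 2.41 ± 0.09, whereas its relative Lin7b fell by 2.31 ± 0.15. Nsf, a membrane fusion ATPase, fell by 1.13 ± 0.10, and Kif17, the motor that transports GluN2B, was at -1.26 ± 0.25. For Kif17, 0 libraries of either region reached 5 cpm. The counts against the cortex were 1 higher and 3 lower, and without Kif17 1 and 2 of 11.

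Kinases and phosphatases that act on the receptor were lower or not called. In the cerebellum, 6 of 15 were lower than in the hippocampus and 0 higher, with a median of -0.76. The largest differences were Ptk2b, the tyrosine kinase Pyk2 (-4.86 ± 0.16), Camk2a, which phosphorylates and binds GluN2B (-3.92 ± 0.35), Dapk1 (-3.62 ± 0.14) and Ptpn5, the phosphatase STEP (-2.98 ± 0.14). Camk2b was at -0.76 ± 0.10, under 2-fold. Against the cortex, 5 of 15 were lower and 0 higher.

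Downstream signalling genes followed with 6 of 14 lower than in the hippocampus and 1 higher, and a median of -0.62, and without Rasgrf2 it was 5 lower and 1 higher of 13. Kalrn, a guanine nucleotide exchange factor of dendritic spines (-3.43 ± 0.15), and Arc, an activity-dependent gene (-2.36 ± 0.18), were lower, and Rasgrf2, a calcium-dependent activator of Ras, was at -4.71 ± 0.17. Tiam1, a Rac activator bound to GluN1, was the 1 higher gene (1.22 ± 0.12). Against the cortex 5 were lower and 2 higher, and without Rasgrf2 4 and 2 of 13.

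Between cortex and hippocampus, where 0 subunits passed, few partners did. Of all genes, 4.38% were called higher and 4.03% lower in the cortex. Among 13 supply genes 1 was higher (Slc17a6, 1.15 ± 0.26) and 1 lower, and the 13 scaffolds had 1 higher (Dlg1, 1.16 ± 0.10) and 1 lower (Actn2, -1.15 ± 0.24, which passed the filter only through hippocampus libraries, leaving 1 higher and 0 lower of 12). The 14 downstream signalling genes had 2 higher (Arc, 1.79 ± 0.16, and Rasgrf2, 1.45 ± 0.11) and 1 lower (Nos1, -1.56 ± 0.14). Trafficking genes and kinases had 0 called of 12 and 15.

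**Figure D4:**
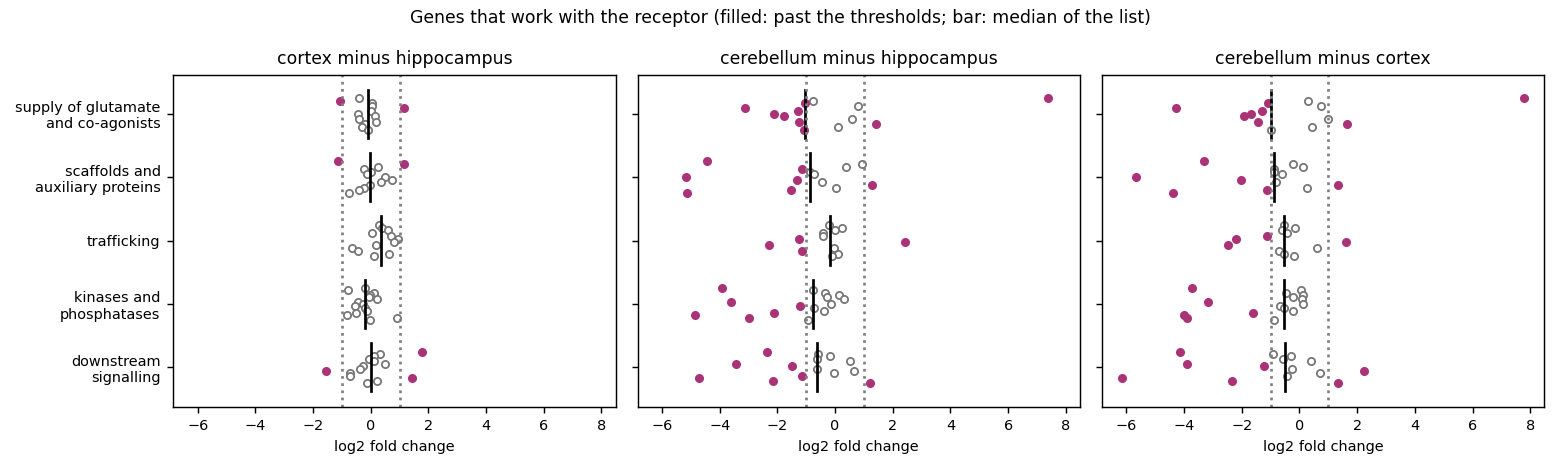
Log2 fold change between regions (x axis) of each gene that works with the NMDA receptor, by list; filled points passed an FDR below 0.01 and more than 2-fold, open points did not, and bars are list medians. In cerebellum minus hippocampus the medians ran from -1.05 for supply of glutamate and co-agonists to -0.16 for trafficking.

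CD and WT mice were compared within each region. No subunit gene passed the thresholds in any region: 0 of 5 in the hippocampus, 0 of 4 in the cortex and 0 of 4 in the cerebellum, against 0% of the 9964, 9927 and 10141 genes tested by edgeR. At an unadjusted p below 0.05 there were 420, 328 and 461 genes (4.22%, 3.3% and 4.55%), and Grin3a in the hippocampus was the 1 subunit gene among them. DESeq2 called 2, 1 and 0 genes over the whole table and 0 subunits. All WT and CD groups overlapped for each subunit in each region.

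Grin1 in the hippocampus was at 242.3, 241.2 and 231 cpm in WT mice m162, m240 and m244, and at 206, 225, 243.9 and 237 cpm in CD mice m118, m138, m190 and m242. In the cortex it was at 250, 258, 305 and 328 cpm in WT mice m162, m164, m240 and m244, and at 233, 230, 289 and 277 cpm in the CD mice. In the cerebellum the WT values were 194, 204, 181 and 213 cpm and the CD values of mice m118, m190 and m242 were 211, 212 and 203 cpm. The highest WT cortex libraries were above all CD ones, and the other groups were intermixed. The log2 difference, CD minus WT, was -0.07 ± 0.09 SE in the hippocampus, -0.18 ± 0.12 for cortex and 0.07 ± 0.09 for cerebellum. The 95% intervals allowed CD to WT ratios of 0.827 to 1.10, 0.736 to 1.06 and 0.914 to 1.21 in that order, and without mouse m118 the hippocampus value was -0.03.

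Grin2b in the hippocampus was at 303, 203 and 344 cpm in the WT mice and at 298, 232, 325 and 258 cpm in the CD mice, in the same order of mice. In the cortex the WT values were 250, 219, 258 and 247 cpm and the CD values 246, 283, 197 and 306 cpm. In the cerebellum they were 14.9, 19.97, 12.2 and 15.6 cpm in WT and 21.996, 18.3 and 14.0 cpm in CD mice. WT and CD values overlapped in each region. The lowest and the highest hippocampus libraries were WT, those of the cortex were CD, and in the cerebellum the lowest was WT and the highest CD. The log2 differences were -0.03 ± 0.18, 0.05 ± 0.13 and 0.19 ± 0.20, with ratios of 0.750 to 1.28, 0.853 to 1.26 and 0.849 to 1.53 inside the 95% intervals. Without mouse m118 the hippocampus value was -0.07.

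Grin2b had further transcripts, of which XM_017321396.1 held the most counts after the main one. Its counts were 49.9%, 43.7% and 39.3% of those on NM_008171.3 in the WT hippocampus of mice m162, m240 and m244, and 57.9%, 57.9%, 51.2% and 49.6% in the CD hippocampus of mice m118, m138, m190 and m242. In the cortex the WT values of mice m162, m164, m240 and m244 were 52.9%, 45.2%, 37.0% and 31.6%, and the CD values of mice m118, m138, m190 and m242, at 43.7%, 41.0%, 43.2% and 42.0%, lay inside the WT range. In the cerebellum the WT values were 57.6%, 37.7%, 62.1% and 46.2% and the CD values 27.1%, 48.0% and 29.5%, with 66 to 114 counts a library on the main transcript. The hippocampus groups met at their edges with CD on the higher side, and the cerebellum lay the other way around with overlap. With XM_017321396.1 in place of the main transcript, the CD minus WT log2 difference was 0.26 ± 0.18 in the hippocampus (edgeR adjusted p = 0.998) and -0.33 ± 0.26 in the cerebellum (adjusted p = 0.980), so the sign turned in both regions and neither passed. Without mouse m118 the hippocampus value with this transcript was 0.19 ± 0.18 (adjusted p = 0.998), and the CD hippocampus libraries left had shares of 49.6% to 57.9%.

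Grin2c was at 10.8, 11.6 and 10.3 cpm in the WT hippocampus and at 10.1, 7.99, 12.2 and 11.2 cpm in the CD hippocampus. In the cortex the WT libraries had 9.24, 10.1, 8.62 and 12.5 cpm and the CD libraries 8.42, 9.59, 13.1 and 11.5 cpm. The cerebellum, where the gene was high, had 91.4, 74.6, 71.5 and 76.9 cpm in WT and 73.0, 82.5 and 67.7 cpm in CD mice. CD libraries were both the lowest and the highest in hippocampus and cortex, and the highest cerebellum library was WT. The log2 differences were -0.08 ± 0.19, 0.06 ± 0.20 and -0.09 ± 0.12, and the interval in the cerebellum allowed CD to WT ratios of 0.787 to 1.13. Without mouse m118 the hippocampus value was -0.08.

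Grin2a was at 5.32, 2.01 and 8.92 cpm in the WT hippocampus and at 7.16, 2.66, 1.91 and 4.23 cpm in the CD hippocampus, a log2 difference of -0.49 ± 0.52 (edgeR adjusted p = 0.997) with an interval from -1.62 to 0.65. Without mouse m118 it was -0.85 ± 0.50 (edgeR adjusted p = 0.998). In the cortex (WT 5.08, 3.16, 1.72 and 1.17 cpm, CD 3.55, 1.95, 2.12 and 2.30 cpm) and the cerebellum (WT 0.151, 0.526, 1.11 and 2.02 cpm, CD 0.822, 0.183 and 2.63 cpm) it was under the filter. Two-sided exact permutation tests of log2(cpm + 0.5) gave p = 1 and p = 0.771 there, where the smallest p the design allows is 0.0286. The interval in the hippocampus included a level 2-fold lower in CD than in WT mice and left out one 2-fold higher.

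Grin3a had the largest difference between the genotypes among subunits other than Grin2a. In the hippocampus it was at 38.6, 55.4 and 39.4 cpm in WT mice m162, m240 and m244 and at 53.3, 66.0, 47.4 and 68.2 cpm in CD mice m118, m138, m190 and m242. WT mouse m240 lay among the CD mice, and the other WT mice lay under all of them. The log2 difference was 0.39 ± 0.17 SE (95% interval 0.03 to 0.76, a CD to WT ratio of 1.02 to 1.69, p = 0.0355, edgeR adjusted p = 0.997), and the two-sided exact permutation test gave p = 0.143. Without mouse m118 the value was 0.44 ± 0.17 (p = 0.0299, adjusted p = 0.998 in edgeR), and the exact permutation test of 3 against 3 mice gave p = 0.2, where the smallest possible p is 0.1. Without each library in turn the difference ran from 0.31 to 0.59. It did not pass the correction.

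In the other regions the Grin3a difference was below 0 and did not pass. The WT cortex had 39.9, 54.1, 49.5 and 34.4 cpm and the CD cortex 55.0, 48.0, 31.0 and 28.6 cpm, with a log2 difference of -0.17 ± 0.21. The WT cerebellum had 45.8, 41.9, 42.6 and 48.3 cpm and the CD cerebellum 45.6, 46.4 and 37.6 cpm, with -0.06 ± 0.12. CD mice m190 and m242 were the lowest cortex libraries, and CD mouse m242 the lowest in the cerebellum and the highest in the hippocampus.

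Within the hippocampus, the 3 libraries with the highest Grin3a were the 3 with the lowest Grin2b. These were WT mouse m240 (55.4 cpm Grin3a and 203 cpm Grin2b), CD mouse m138 (66.0 and 232 cpm) and CD mouse m242 (68.2 and 258 cpm), so both genotypes were among them. Among these 3, Grin2b rose together with Grin3a. The same libraries were also the 3 most deeply counted hippocampus libraries (8858937, 8732918 and 7191773 counts). The sum of 5 hippocampal neuron markers was 1231, 1052 and 932 cpm in them and 1186 to 1322 cpm in the other 4 libraries. Choroid plexus markers ran from 122 to 8025 cpm among hippocampus libraries and were highest in WT mouse m244 and CD mouse m190, which had the highest Grin2b (344 and 325 cpm). Their part in the subunit levels was not tested.

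**Figure D5:**
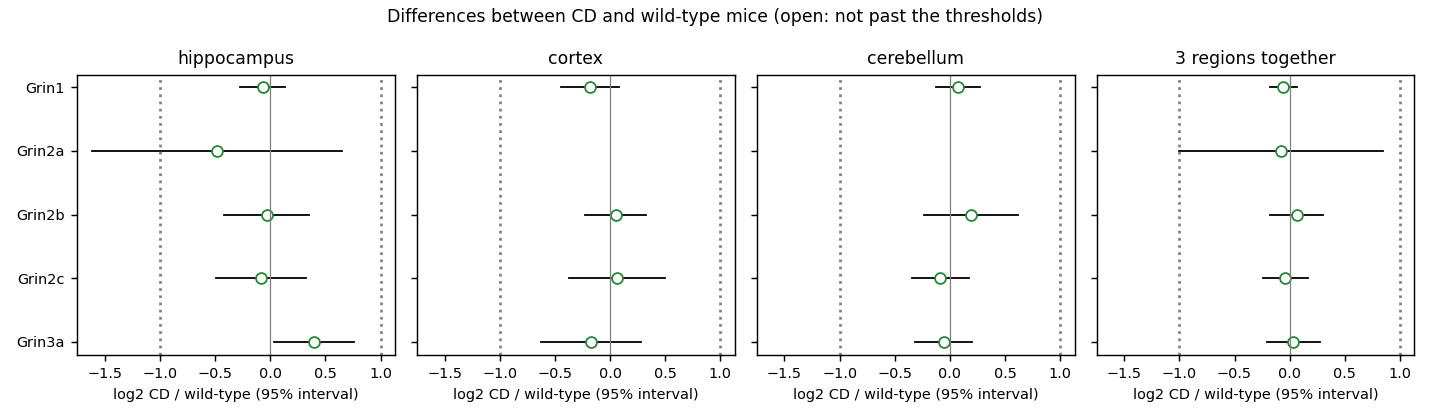
Log2 difference between CD and WT mice (x axis) of each NMDA receptor subunit gene with its 95% interval, by region (edgeR) and over the 3 regions (limma-voom, mouse as a random block); dotted lines mark 2-fold, and Grin2a was under the filter in cortex and cerebellum. The interval of Grin3a in the hippocampus (0.03 to 0.76) left out 0, and the lowest adjusted p was 0.981.

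Over the 3 regions together (limma-voom, mouse as a random block), 0 of 5 subunits and 0 of 11137 genes passed (0%), with 399 genes at an unadjusted p below 0.05 (3.58%). The CD minus WT log2 differences were -0.06 ± 0.06 for Grin1, -0.08 ± 0.45 for Grin2a, 0.06 ± 0.12 for Grin2b, -0.04 ± 0.10 for Grin2c and 0.03 ± 0.11 for Grin3a. The intervals excluded a CD to WT ratio under 0.844 or over 1.23 for Grin1, Grin2b, Grin2c and Grin3a, and for Grin2a left a range from 0.499 to 1.79. Whether the genotype difference itself differed between regions was tested by the interaction term in edgeR. At an FDR below 0.05, 0 of 5 subunits and 0 of 11137 genes passed, with 435 genes at an unadjusted p below 0.05 (3.91%). Each subunit had an edgeR adjusted p of 0.999 in that test. Without the hippocampus library of mouse m118, the differences over the regions were -0.04, -0.14, 0.05, -0.04 and 0.05 in the same order of genes, and 0 genes passed in either test.

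Genes that work with the receptor gave 0 calls between the genotypes in each region. At an unadjusted p below 0.05 there were 2 of 14 downstream signalling genes in the hippocampus, against 4.22% of all genes. These were Arc (0.32 ± 0.15) and Mapk3 (-0.28 ± 0.12), with an adjusted p of 0.997 for both in edgeR. In the other lists there, 0 of 12, 13, 11 and 15 genes were below 0.05. In the cortex there was 1 of 15 kinases and phosphatases (Dapk1, 0.38 ± 0.12), against 3.3%, and in the cerebellum 1 of 11 trafficking genes (Exoc4, 0.51 ± 0.23), against 4.55%, with edgeR adjusted p of 0.9998 and 0.981. A single gene of such short lists is near the background. Without mouse m118 in the hippocampus, Arc was at 0.29 ± 0.15 and Mapk3 at -0.24 ± 0.13, both above an unadjusted p of 0.05. In their place 1 of 13 scaffolds (Dlg1, 0.37 ± 0.15) and 1 of 15 kinases (Camk2a, -0.47 ± 0.19) were below it, against 4.42% of 9861 genes, with an edgeR adjusted p of 0.998 for both and 0 calls. The median absolute log2 difference was between 0.06 and 0.10 for the lists in the hippocampus, against 0.11 over all genes. In the cortex it ran from 0.06 to 0.19, against 0.11, the highest being downstream signalling, and in the cerebellum from 0.01 to 0.14, against 0.12, the highest being trafficking.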

How the data were processed

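RNA of 3 brain regions of 8 mice was measured in 22 CelSeq2 libraries. The authors deposited raw counts per RefSeq transcript: per the labels and the study's methods, STAR placed the reads on mm10 and the End Sequence Analysis Toolkit counted them, with no normalization. Tool versions, and any collapsing of reads by molecular identifier, are not given in the sources used here. Transcripts were matched to genes by accession without version (69288 of 85964, 80.6%), and each gene was represented by the transcript with the highest total. A gene entered a fit when 2 or more libraries had 5 cpm or more (among those of the region for genotype, among all 22 otherwise). Counts were scaled by TMM, and edgeR 4.0.16 in R 4.3.3 gave quasi-likelihood p-values with Benjamini-Hochberg adjustment (FDR). A call needed an FDR below 0.01 and a fold change outside 0.5 to 2. For genotype over regions, voom in limma 3.58.1 was used with the mouse as random effect. Log2 ratios within a library used a pseudocount of 0.5 counts. The tests were also run on simulated data, with changes of more than 2-fold in well-counted genes only. Those data do not cover thinly counted genes such as Grin2a or small differences.

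Genotype, region and mouse came from the labels, which pair regions by mouse. Deviations of libraries of the same mouse from their group means correlated at 0.0074 to 0.18 between cortex and hippocampus (mean 0.083), with means of 0.047 and -0.0036 for the cerebellum with hippocampus and with cortex. The study states 1 library fewer per group than was used here. The members and lists were chosen with earlier results of these data known. The genes named are the members, the 3 genes most correlated with each, and up to 4 genes a list with the largest called change; Slc6a9, Ephb2, Tiam1, Dlg4, Camk2b and the genes named by unadjusted p were chosen for naming once their values were known. Some results on single genes and stretches are not reported here. Sequences are from the GRCm38 reference, and transcript ends from the GENCODE annotation. Alternatives were RLE scaling, no filter, DESeq2 1.42.0, summed transcripts, the next transcript of each member, list counts without genes that passed the filter on 1 side of a comparison, and the further values without mouse m118 (all added after the data were seen), 1 genotype alone, the mouse as a block, and each library left out.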

Additional observations from a re-analysis of the deposited data

Results flagged for a closer look

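Among 36 groups of 4 libraries examined for a library far from the others, 2 stood out, where chance gives about 1 in 20 groups. Both are the same library: in the CD cortex of mouse m190, Grin2c took 6.16% of the Grin2a, Grin2b and Grin2c counts, against 3.26% to 3.59% in the other 3 CD cortex libraries. On the log2 scale the share was -4.01, against -4.93 to -4.79. That library had 74 counts of Grin2c and the lowest Grin2b level of the cortex (197 cpm).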

How the results depend on the processing

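The counts of subunits past the thresholds stayed at 0 between cortex and hippocampus and between genotypes under all alternatives run, and Grin2b and Grin2c passed in both comparisons of the cerebellum under all of them, including each library left out. The other count, 3 or 2 in the cerebellum comparisons, moved only through Grin2a. Cerebellum against hippocampus fell short with its next transcript (-1.68, adjusted p = 0.0121). Cerebellum against cortex passed with no filter on low counts (-1.26, adjusted p = 0.00111) and ran from -1.97 to -1.02 with a library left out. With CD libraries alone Grin2a was under the filter and gave no value. With the mouse as a replicate block, 926, 2548 and 2519 genes were called in the 3 region comparisons against 937, 2539 and 2515, and the block changed no call of a subunit. With transcripts summed, the log2 share of Grin2c rose to differences of 5.09 (cerebellum minus hippocampus) and 4.82 (cerebellum minus cortex). The sum took in 6 distinct Grin2b transcripts of 10891 to 24602 counts each and 3 of Grin2c, of 197 to 4165 counts. Their part in the change was not tested.

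Signs turned only for differences that did not pass. In WT libraries alone Grin3a was 0.0036 for cortex minus hippocampus and -0.022 for cerebellum minus cortex, and in CD libraries alone Grin2c was 0.023 for cortex minus hippocampus. Grin2b, CD minus WT, was 0.18 in the hippocampus and -0.12 in the cerebellum with transcripts summed, and 0.26 and -0.33 with the next transcript. With a library left out, CD minus WT ran from -0.23 to 0.14 for Grin2b, -0.92 to 0.10 for Grin2a and -0.17 to 0.038 for Grin2c in the hippocampus. In the cortex it ran from -0.036 to 0.16 for Grin2b and -0.044 to 0.16 for Grin2c, and in the cerebellum from -0.12 to 0.041 for Grin3a. Grin3a in cerebellum minus cortex ran from -0.036 to 0.13. With a mouse left out, the differences over the 3 regions ran from -0.46 to 0.29 for Grin2a, -0.039 to 0.12 for Grin2b, -0.13 to 0.028 for Grin2c and -0.024 to 0.10 for Grin3a. With no filter, 6, 3 and 10 genes passed between genotypes in hippocampus, cortex and cerebellum, none of them a subunit. Grin2a was counted thinly, with 364 counts in all, and the reason was not tested.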

Other observations

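A pair of genes that carry related names stand outside the listed subunits. Grin3b, which encodes the other GluN3 subunit, was counted at 0 to 4 in the hippocampus, 1 to 7 in the cortex and 2 to 10 in the cerebellum per library and was under the filter. Grina, a membrane protein that is not a channel subunit, was at 216 ± 13.3 cpm (SD, n = 7) in the hippocampus, 184 ± 14.2 cpm (n = 8) in the cortex and 221 ± 12.7 cpm (n = 7) in the cerebellum. Its CD minus WT log2 difference over the 3 regions was -0.03 ± 0.05 (limma-voom adjusted p = 0.9996).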
